A study of Mus musculus with 12 samples.

Results

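The 10 genes described here, Gata6, Rarb, Tgfb2, Icam2, F5, F10, Timd4, Selp, Vsig4 and Bhlhe40, mark the large resident macrophages of the mouse peritoneal cavity. They were taken by name, and every array probe whose RefSeq transcript belongs to one of them was followed. These are 10 of 20887 genes named on the array, and they gave 14 of its 55681 non-control probes: 2 probes each for Rarb, Tgfb2, F5 and F10, and 1 for each of the other genes. Probes had to exceed background clearly in every one of the 4 arrays of some group to be tested, and all 14 were among the 27705 that passed. The cells were wild-type peritoneal macrophages of C57BL/6 mice aged 8 weeks, freed of non-adherent cells and kept overnight without serum, a treatment that all 3 groups share. They were then given vehicle (control), 10 ng/ml of the cytokine IL4, or 10 ng/ml IL4 together with 50 µM emodin, a plant anthraquinone, with 4 one-colour arrays in each group. The length of treatment is 6 h in the sample descriptions and overnight in the treatment protocol, and the series' design text names blood leukocytes rather than peritoneal cells. Arrays of a group are labelled biological replicates, but nothing says whether an array holds the RNA of 1 mouse or of a pool.

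More than one kind of macrophage lives in the peritoneal cavity, and the large kind is long-lived, renews itself locally and takes up dying cells. Its identity depends on the transcription factor GATA6, which is kept on by retinoic acid supplied by the surrounding tissue. Further genes for adhesion, clotting and uptake of particles mark it. IL4 drives macrophages into alternative activation and can make resident peritoneal macrophages divide.

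Values are log2 spot intensities minus the 75th percentile of each array, so 0 is the intensity of the probe at that percentile. The level of one probe is not set against that of another. On the arrays, control and IL4 samples lay on slide 1 and all IL4 plus emodin samples on slide 2, and the effect of the slide cannot be told apart from that of emodin. On slide 1 all control arrays lay in row 2 and all IL4 arrays in row 1, so row and IL4 cannot be told apart either. The array number was also the column on the slide in every group. Pairing by number and the labelled sex therefore follow the position on the slide. The 75th percentile itself was 730 ± 74.0 intensity units (SD, n = 4) in control, 776 ± 24.5 in IL4 and 488 ± 31.4 in IL4 plus emodin, while the added spike-in RNAs were brighter with emodin, at a mean log2 intensity of 11.17 against 10.76 with IL4. Relative to the spike-ins the median of all probes fell by 0.91 on the log2 scale from IL4 to IL4 plus emodin, whereas relative to the 75th percentile it was 0.17 higher. All directions below are relative to the 75th percentile unless the spike-ins are named. The share of probes well above background was 50.2% in control, 52.3% in IL4 and 48.3% in IL4 plus emodin. Of the macrophage markers, 7 of 7 were well above background on all 12 arrays, and so were the defining genes Adgre1 and Csf1r. The labels give arrays 1 and 2 of each group as female and arrays 3 and 4 as male. The levels went against this: Xist was well above background on all 12 arrays, at -0.01 to 1.43, and the 4 Y-linked genes Ddx3y, Kdm5d, Eif2s3y and Uty were well above background on none, so the 6 arrays are called labelled male below.

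Among the 14 probes, 5 were higher with IL4 than in control at an adjusted p below 0.05 and none was lower, against 16.7% of all probes called and 8.64% called higher. The 5 probes belong to F10, Bhlhe40, Selp, Rarb and Tgfb2. The median difference was 0.54 over the 14 probes and -0.03 over all probes tested. The groups did not overlap for 6 of the 14 probes, against 24% of all probes. Control and IL4 arrays of the same number deviated together from their group means, and with the array number as a block the same differences gave 8 of 14 probes called, against 23.9% of all probes. With emodin added to IL4, 5 probes were lower (Icam2, Bhlhe40, Rarb, F10 and Selp) and 1 was higher (F5), 6 of 14 in all, against 65.7% of all probes called, 39.7% higher and 26% lower. The median difference was -0.39 over the 14 probes and 0.17 over all, and 5 of 14 did not overlap, against 60.3%. Between IL4 plus emodin and control 4 of 14 were called, 2 higher and 2 lower, against 62.8% of all probes called and 25% called lower. Here 2 of 14 did not overlap, against 53.9%. The IL4 and the emodin comparison share the IL4 arrays, and the differences of each are given side by side below. Counts of the gene lists below stand beside the same shares of all probes, and no list was tested as a set. These shares were 8.64% higher and 8.04% lower with IL4, and 39.7% and 26% with emodin against IL4. Against control they were 37.8% and 25%. These shares do not apply to list counts against the spike-ins. Under spike-in scaling, emodin against IL4 gave 1093 probes higher and 22151 lower of 27705. Emodin against control gave 1301 and 20707, and IL4 against control 2418 and 789.

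**Figure D1:**
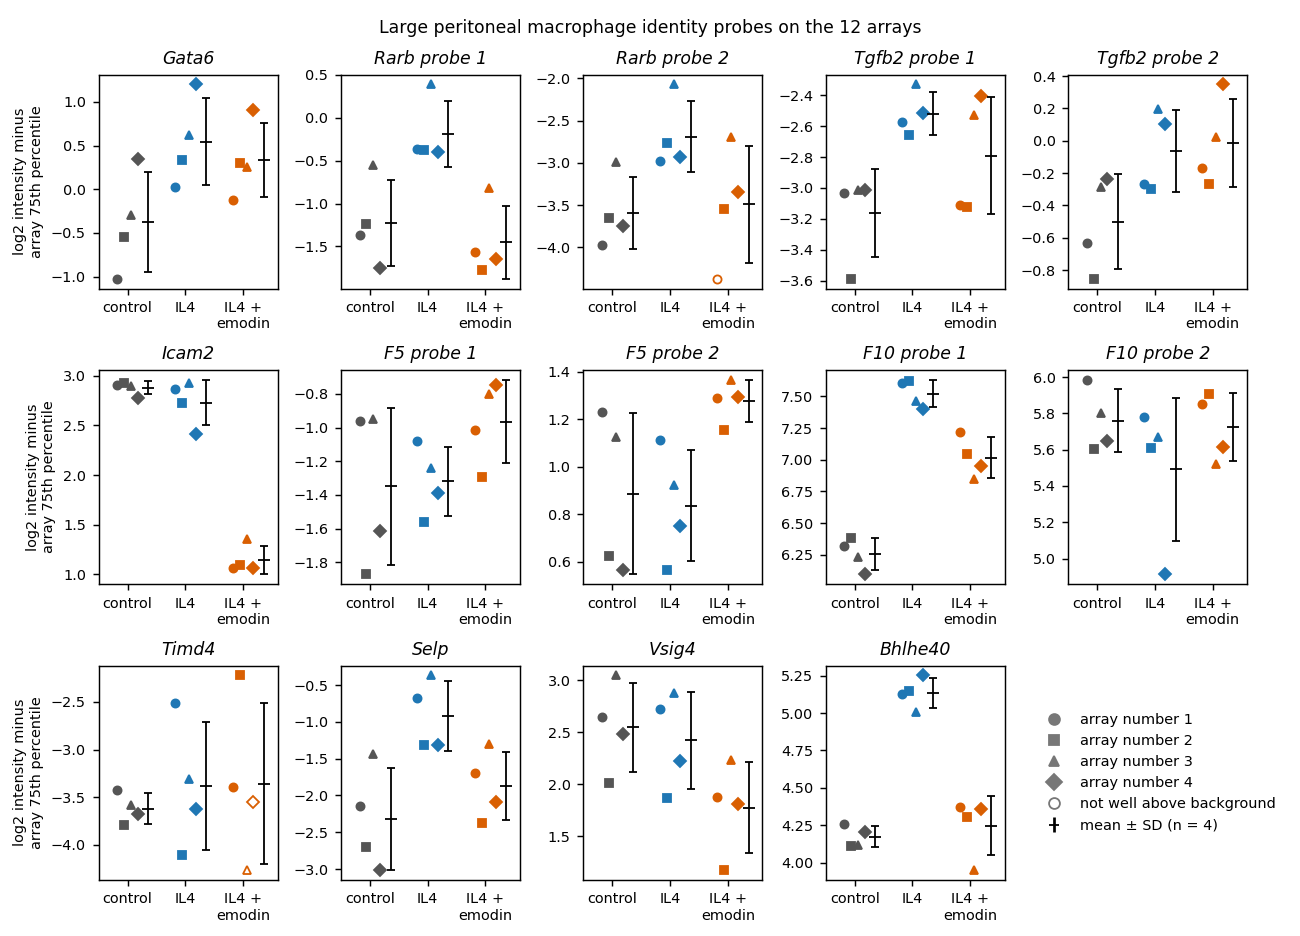
Log2 intensity minus the 75th percentile of the array (vertical axis) for each of the 14 probes on the 12 arrays, by group, with the shape of a point for the array number and mean ± SD (n = 4) beside it. Open points are not well above background. F10 probe 1, Bhlhe40 and Selp stand above control in all 4 IL4 arrays, and the 4 emodin arrays of Icam2, at 1.06 to 1.36, lie below every other array.

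**Figure D2:**
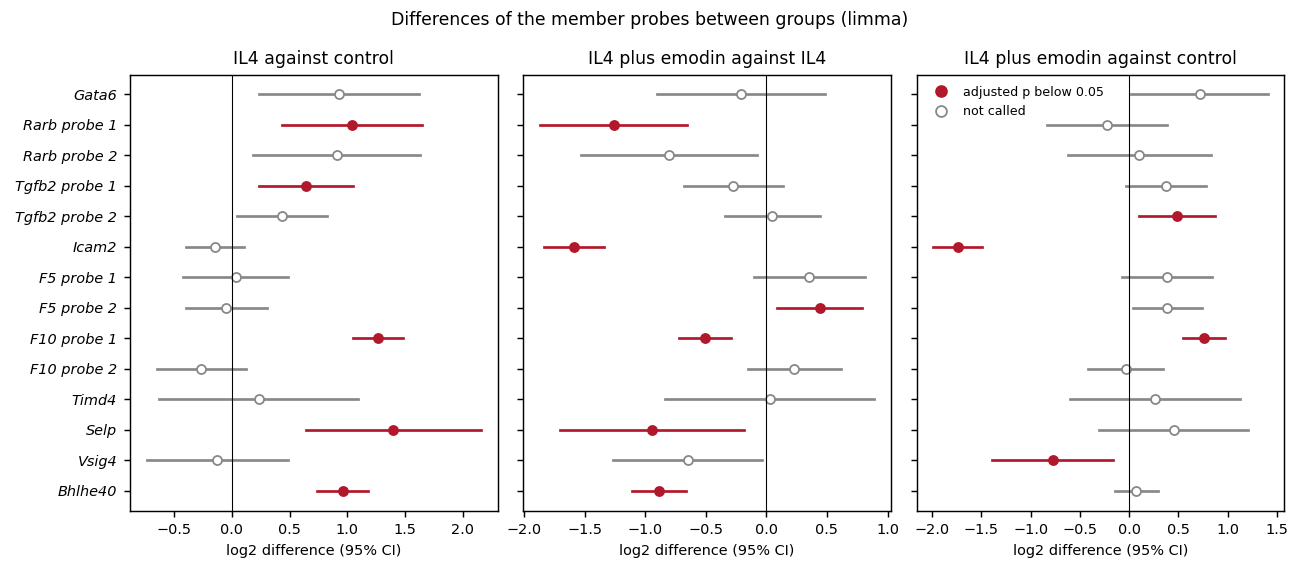
Log2 difference of each probe between groups (horizontal axis) with its 95% confidence interval from limma, in the 3 comparisons. Filled points passed an adjusted p of 0.05, 5 with IL4 against control, 6 with IL4 plus emodin against IL4 and 4 with IL4 plus emodin against control.

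Gata6, the transcription factor that sets the identity of large peritoneal macrophages, lies on chromosome 18 (18:11052510-11085636, GRCm38.p6). Its 4 control arrays, in the order of their numbers, read -1.03, -0.55, -0.29 and 0.35. The IL4 arrays read 0.03, 0.33, 0.62 and 1.20, and the IL4 plus emodin arrays -0.12, 0.30, 0.26 and 0.90. Array 4 was the highest and array 1 the lowest in each group, and the control and IL4 groups overlap. The difference between IL4 and control was 0.92 ± 0.32 (SE), which missed the threshold when the 4 arrays of each group were treated as unpaired (limma, adjusted p = 0.0689). Between arrays of the same number, however, IL4 exceeded control by 0.85 to 1.05 in 4 of 4, and with the array number as a block the same difference was called (limma, SE 0.08, adjusted p = 6.88e-05). Emodin left Gata6 at -0.21 ± 0.32 against IL4 (adjusted p = 0.576, 95% interval -0.90 to 0.48) and at 0.72 ± 0.32 against control (adjusted p = 0.0669). Against spike-ins, Gata6 was lower with emodin than with IL4, by a difference of -1.29 (adjusted p = 0.00322). Without control array 4 the IL4 difference was called unpaired (adjusted p = 0.0253), as it was after normexp background correction (0.0214). Against control, emodin arrays were called higher without control array 4 (0.0170) or emodin array 1 (0.0433).

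The summed markers of mesothelium, the cell layer that lines the cavity, and of fibroblasts were likewise lowest on array 1 and highest on array 4 of each group, though the mesothelial gene Msln was highest on array 2. The summed level of the 5 mesothelial markers, in multiples of the 75th percentile, was 0.978, 1.94, 1.98 and 2.46 on control arrays 1 to 4. It was 1.33, 2.98, 3.15 and 4.43 with IL4, and 1.17, 2.15, 2.33 and 3.44 with IL4 plus emodin. For the 4 fibroblast markers the sums ran from 13.5 to 64.6 in control, from 15.0 to 77.1 with IL4 and from 19.1 to 91.0 with emodin. All 4 fibroblast markers, the collagens Col1a1 and Col3a1, Dcn and Pdgfra, were well above background on all 12 arrays, and 4 or 5 of 5 mesothelial markers were so on each array. Dcn had the highest signal of the 4 and weighs most in the fibroblast sum. Pdgfra read -2.76, -1.44, -1.24 and -0.28 with emodin, below the same-number arrays of both other groups. It read -1.66, -0.42, -0.19 and 1.10 with IL4 and -1.61, -0.59, -0.35 and 0.75 in control. The other fibroblast markers were higher with emodin than in control between same-number arrays. None of the 4 was called in any comparison of the groups. Within groups, Gata6 correlated with the log2 sum of fibroblast markers at r = 0.946 and with that of mesothelial markers at r = 0.896, a description over 12 arrays that share array numbers and RNA input. Between same-number arrays the IL4 sum exceeded the control sum by 0.44 to 0.85 on the log2 scale for mesothelium and by 0.15 to 0.25 for fibroblasts; the difference between group means missed the threshold for both (exact permutation test, two-sided, p = 0.171 and 0.657, where 0.0286 is the smallest possible). Of the mesothelial genes, Lrrn4 was called, with a difference of 2.42 between IL4 and control (limma, adjusted p = 0.0271), and it was well above background on 1 of 4 emodin arrays. Without Lrrn4, an alternative chosen after its values were seen, the mesothelial sum with IL4 exceeded control by 0.12 to 0.38 between same-number arrays, and its correlation with Gata6 within groups was 0.857. The part of these cells in the Gata6 signal was not tested. In bulk RNA, fewer cells of a type and less RNA per cell cannot be told apart. The 5 genes whose pattern over the 12 arrays was most like that of Gata6 were Shroom2 (r = 0.970), Vegfc (0.968), Col6a2 (0.967), Ptgis (0.967) and C3 (0.964).

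**Figure D3:**
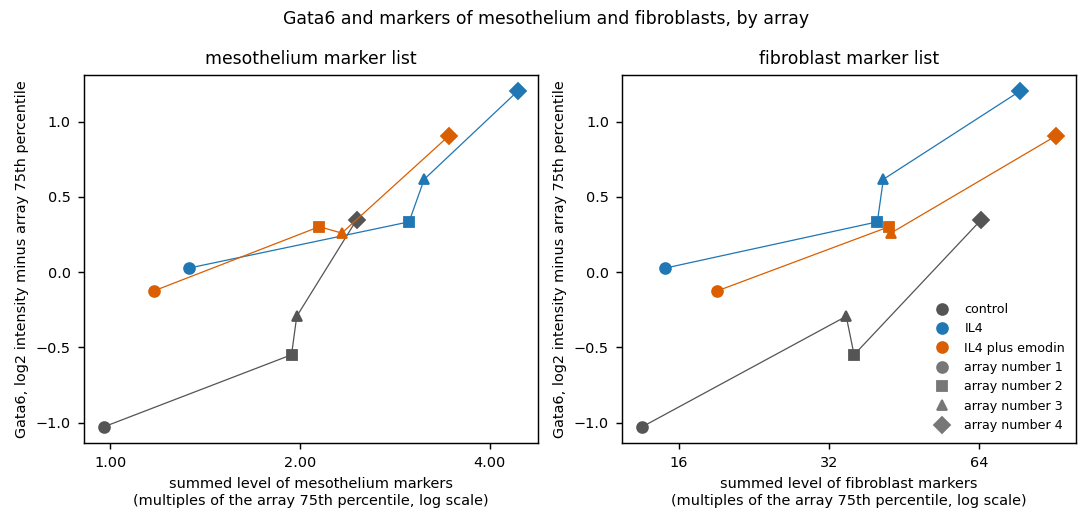
Gata6, as log2 intensity minus the 75th percentile (vertical axis), against the summed level of mesothelial (left) and fibroblast (right) markers on a log axis, for the 12 arrays. Lines join the arrays of a group. In each group array 1 is lowest and array 4 highest for Gata6 and for both sums, and the IL4 and emodin arrays lie above the control array of the same number.

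Rarb encodes a nuclear receptor for retinoic acid and is itself a classical retinoic acid target. Its promoter is shown because it carries the target element in plain letters. RefSeq's promoter window (GRCm38.p6) for Rarb starts inside the annotated span of the gene, and the 250 bases before the start are chr14:16575477-16575726 on the minus strand. The capitals mark the GTTCAC motif and its direct repeat, 5 bases apart, at -52 to -36 from the start. Both strands of all promoter windows, 300 bases each, were searched, and 2 of 32851 (0.00609%) held this repeat.

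Rarb: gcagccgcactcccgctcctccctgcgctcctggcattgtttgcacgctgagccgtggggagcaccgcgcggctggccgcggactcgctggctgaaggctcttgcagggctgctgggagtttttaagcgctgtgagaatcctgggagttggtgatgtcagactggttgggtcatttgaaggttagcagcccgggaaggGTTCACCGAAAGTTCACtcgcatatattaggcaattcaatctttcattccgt

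Rarb probe 1 read -1.36, -1.24, -0.55 and -1.75 on the control arrays, -0.37, -0.37, 0.39 and -0.40 with IL4, and -1.57, -1.77, -0.82 and -1.64 with IL4 plus emodin. Array 3 was the highest in every group, every IL4 array lay above every control array, and the emodin arrays overlapped control. IL4 raised this probe by 1.04 ± 0.28 (adjusted p = 0.0237), a 2.05-fold change, and between same-number arrays by 0.86 to 1.35. With emodin it fell by 1.26 ± 0.28 from the IL4 level (adjusted p = 0.00171) and stood at -0.22 ± 0.28 against control (adjusted p = 0.502). Against the spike-ins, however, probe 1 was called lower with emodin than in control, at -1.18 (limma, adjusted p = 0.000770). Probe 2 of the same transcript read -3.98, -3.66, -2.99 and -3.75 in control, -2.98, -2.77, -2.07 and -2.93 with IL4, and -4.37, -3.55, -2.69 and -3.34 with IL4 plus emodin. It gave 0.91 ± 0.33 with IL4 (adjusted p = 0.0885, and 0.00212 with the array number as a block) and -0.80 ± 0.33 with emodin against IL4 (adjusted p = 0.0504), with 3 of 4 emodin arrays well above background. Here IL4 lay above control on every array too, and the emodin difference was called after quantile normalization (adjusted p = 0.0200) and without emodin array 3 (0.0105). After normexp correction, however, the IL4 difference of probe 2 was 0.25 (adjusted p = 0.237) and the emodin difference -0.04 (0.836). Treating the arrays as unpaired, the IL4 call on probe 1 was lost without IL4 array 3 (adjusted p = 0.0668) and without control array 1, 2 or 4 (0.0525, 0.0543 and 0.0702). With all arrays and the array number as a block it was called (limma, adjusted p = 0.000124). Pf4, the one platelet-list gene above background, was also highest on array 3 in each group: the sum of its list was 183, 162 and 201 there, against 89.5 to 132 on the other arrays. Within groups it correlated with Rarb at r = 0.918 and 0.873 for the probes; Pf4 itself had an IL4 difference of -0.05 ± 0.27 (adjusted p = 0.927). The defining platelet genes Itga2b, Gp9, Ppbp and Gp1ba were well above background on no array.

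Of the other genes of retinoic acid metabolism and reception, 4 of 14 tested were higher with IL4 and none lower, with a median of 0.33. Rbp4, a retinol carrier, rose by 5.21 ± 0.36 on the log2 scale, with 2 of 4 control arrays well above background. The retinaldehyde dehydrogenases that make retinoic acid rose too, Aldh1a2 by 1.35 ± 0.18 and Aldh1a3 by 2.53 ± 0.56, the latter with 1 control array above background. Dhrs3, which turns retinaldehyde back to retinol, rose by 0.75 ± 0.11. Against IL4 alone, on the emodin arrays 3 of 14 were higher and 6 lower. Rbp4 fell by 3.84 ± 0.36, and Aldh1a3 was at least 3.99-fold lower (adjusted p = 0.000916), not well above background on any emodin array. The receptor Rarg fell by 1.48 ± 0.09 and the partner receptor Rxra rose by 2.62 ± 0.11, though in this comparison and against control 1 of its 2 probes had the opposite sign without a call. Against control, emodin arrays were higher for 7 and lower for 3. Rxra, at 2.81 ± 0.11, and Tgm2, at 1.43 ± 0.15, were higher, and Rarg, at -1.37 ± 0.09, lower. Against the spike-ins, emodin arrays were higher than control for 2 and lower for 5, and 1 of 14 was higher and 12 lower with emodin than with IL4, and Rxra kept its direction.

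Tgfb2 encodes a secreted ligand of the TGF-beta family. RefSeq's window starts inside the annotated gene span, and the 250 bases before the start are chr1:186705990-186706239 on the minus strand. They are shown because they hold an E-box, CACGTG, at -51 to -46, the type of site bound by basic helix-loop-helix factors such as BHLHE40. The E-box was in 7.15% of all promoter windows.

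Tgfb2: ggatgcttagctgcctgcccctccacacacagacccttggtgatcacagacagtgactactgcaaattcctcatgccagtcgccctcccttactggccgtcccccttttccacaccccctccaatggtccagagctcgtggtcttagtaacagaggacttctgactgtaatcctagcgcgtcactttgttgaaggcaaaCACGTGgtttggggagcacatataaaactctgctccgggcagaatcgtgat

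Of the 7 members whose promoter windows were used here (Selp, F5, Tgfb2, F10, Timd4, Rarb and Vsig4), Tgfb2 alone held the E-box. No window was used for Gata6, Icam2 or Bhlhe40, and any on chromosome 18, where Gata6 lies, would have been left out. Tgfb2 also held GATAA, read on the other strand at 2 to 6 after the start, as 25.4% of windows did. The STAT6-type element, TTC and GAA with 4 bases between, was in none of the 7 and in 6.95% of all windows. Tgfb2 probe 1 read -3.03, -3.59, -3.01 and -3.01 in control, -2.57, -2.66, -2.33 and -2.51 with IL4, and -3.11, -3.12, -2.53 and -2.40 with IL4 plus emodin. The IL4 arrays all lay above control and the emodin arrays overlapped both. Probe 2 read -0.63, -0.85, -0.29 and -0.23 in control, -0.27, -0.30, 0.20 and 0.10 with IL4, and -0.17, -0.27, 0.02 and 0.35 with IL4 plus emodin, with overlap of all groups. The IL4 difference of probe 1 was 0.64 ± 0.19 (adjusted p = 0.0337), called, and 0.44 ± 0.18 for probe 2 (adjusted p = 0.125, and 0.00387 with the array number as a block). In the comparison of IL4 plus emodin with IL4, the probes stood at -0.27 ± 0.19 and 0.05 ± 0.18 (adjusted p = 0.213 and 0.819). Probe 1 was called lower after quantile normalization (-0.47, adjusted p = 0.0466) and against the spike-ins (-1.36, 2.62e-05), and stood at 0.03 after normexp correction (0.845). Against control, probe 2 was higher with emodin by 0.49 ± 0.18 (adjusted p = 0.0320) but stood at -0.47 against the spike-ins. Without control array 2 the IL4 difference of probe 1 was not called (adjusted p = 0.0916), nor without any single IL4 array (0.0516 to 0.0898), nor after normexp correction (0.31, 0.0737). These fits were unpaired. With all arrays and the array number as a block the IL4 difference of probe 1 was called (limma, adjusted p = 0.00635). Against control, probe 1 was called higher with emodin without emodin array 1 (0.0488) or 2 (0.0462) and after normexp correction (0.0233). The emodin difference of probe 2 against control was not called without control array 1 (0.0750) or 2 (0.0962), or without emodin array 3 (0.0615) or 4 (0.0951). Probe 2 went with fibroblast and mesothelial sums within groups at r = 0.620 and 0.601, whose part was not tested.

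In the TGF-beta pathway list, 2 of 17 genes tested were higher with IL4 and 3 lower, with a median of -0.09. The receptor-regulated Smad3 fell by 0.97 ± 0.17, the receptor Tgfbr1 by 0.70 ± 0.15 and the repressor Skil by 0.69 ± 0.18, while Ski rose by 0.60 ± 0.14. With emodin against IL4, 6 of 17 were higher and 3 lower, against 39.7% and 26% of all probes. The inhibitory Smad7 rose by 1.90 ± 0.13, Smad3 by 1.75 ± 0.17 and the latent TGF-beta activator Thbs1 by 1.68 ± 0.30. Against the spike-ins the same list gave 3 higher and 11 lower with emodin, and 1 higher and 1 lower with IL4 against control.

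Icam2 encodes a surface ligand for leukocyte integrins that is used to sort large peritoneal macrophages. Its control arrays read 2.91, 2.93, 2.90 and 2.78, its IL4 arrays 2.86, 2.72, 2.93 and 2.41, and its IL4 plus emodin arrays 1.06, 1.09, 1.36 and 1.06. Control and IL4 overlapped, and the emodin arrays lay below both. IL4 gave -0.15 ± 0.11 (adjusted p = 0.435, 95% interval -0.40 to 0.10). Emodin lowered Icam2 by 1.59 ± 0.11 from IL4, 3.01-fold (adjusted p = 2.50e-07), and by 1.74 ± 0.11 from control (adjusted p = 1.27e-07). It was called lower in both comparisons under each scaling and without each array.

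Selp encodes P-selectin, the adhesion molecule of platelets and endothelium that large peritoneal macrophages also transcribe. It was measured by 9 to 10 spots per array, whose SD was 0.04 to 0.26. Control arrays read -2.14, -2.69, -1.43 and -3.01, IL4 arrays -0.68, -1.32, -0.37 and -1.31, and IL4 plus emodin arrays -1.70, -2.37, -1.31 and -2.09. Every IL4 array lay above every control array, and emodin arrays overlapped both groups. IL4 raised Selp by 1.40 ± 0.35 (adjusted p = 0.0159), 2.64-fold, and by 1.06 to 1.70 between same-number arrays. With emodin it fell by 0.95 ± 0.35 from the IL4 level (adjusted p = 0.0304) and stood at 0.45 ± 0.35 against control (adjusted p = 0.274). Treating the arrays as unpaired, the IL4 call was lost without control array 2 (adjusted p = 0.0504). With all arrays and the array number as a block it was called (limma, adjusted p = 6.33e-05). The emodin call was lost without IL4 array 1 (0.0715) or 3 (0.0891) and without emodin array 2 (0.0853) or 4 (0.0700). The endothelial genes Tek, Cldn5 and Sele and the platelet genes Itga2b, Gp9, Ppbp and Gp1ba were well above background on no array, whereas Kdr, Cdh5 and Pf4 were on all 12. The endothelial sum was carried almost wholly by Kdr, with a mean log2 level of 4.77 against -3.13 for Cdh5. It ran from 25.3 to 28.0 in control, 22.7 to 26.2 with IL4 and 26.6 to 38.3 with emodin. The part of endothelial cells in the Selp signal was not tested.

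Among the other adhesion genes, 1 of 10 was called with IL4: Icam1, which fell by 0.76 ± 0.13. In the comparison of IL4 plus emodin with IL4, 2 were higher and 2 lower, and the integrin subunit Itga4 fell by 2.32 ± 0.19. Itgb1, at 0.80 ± 0.09, and Icam1, at 0.60 ± 0.13, were higher, but at -0.29 and -0.48 against the spike-ins. Against control Itga4 fell by 2.07 ± 0.19.

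Timd4 and Vsig4 encode receptors of resident macrophages, for phosphatidylserine on dying cells and for complement fragments. Timd4 read -3.42, -3.80, -3.58 and -3.68 in control, -2.51, -4.11, -3.31 and -3.62 with IL4, and -3.40, -2.22, -4.26 and -3.55 with IL4 plus emodin. The 3 groups overlapped and 2 of 4 emodin arrays were well above background. The differences were 0.23 ± 0.39 with IL4 (adjusted p = 0.753, 95% interval -0.63 to 1.09) and 0.03 ± 0.39 with emodin against IL4 (adjusted p = 0.954, 95% interval -0.83 to 0.89). Vsig4 read 2.65, 2.01, 3.05 and 2.48 in control, 2.72, 1.87, 2.88 and 2.22 with IL4, and 1.88, 1.17, 2.23 and 1.81 with IL4 plus emodin. The arrays stood in the same order, 3, 1, 4 and 2 from high to low, in all 3 groups. IL4 left Vsig4 at -0.13 ± 0.28 (adjusted p = 0.819). Emodin gave -0.65 ± 0.28 against IL4 (adjusted p = 0.0593), not called, and -0.78 ± 0.28 against control (adjusted p = 0.0302), called, although the groups overlapped. Against IL4 it was called without IL4 array 2 (0.0231) or emodin array 3 (0.0322) and after normexp correction (0.0467). The call against control was lost without control array 1 (0.0640) or 3 (0.0912) and without emodin array 2 (0.0899) or 4 (0.0514).

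Of 18 other genes of uptake of dying cells and complement, 2 were higher with IL4, Itgax by 0.65 ± 0.18 and the bridging protein Pros1 by 0.36 ± 0.09, and none was lower. Against IL4 alone, on the emodin arrays 4 of 18 were higher and 4 lower, against 39.7% and 26% of all probes. Pros1 fell by 0.84 ± 0.09. Gas6, Mfge8 and Marco were higher by 0.77 ± 0.15, 0.67 ± 0.08 and 0.66 ± 0.20, but lower against the spike-ins, at -0.32, -0.42 and -0.42, and Mfge8 stood at -0.06 after quantile normalization.

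F10 encodes clotting factor X, which once activated cuts prothrombin, and lies on chromosome 8 (8:13037308-13056676, GRCm38.p6). Its probes are assigned to different RefSeq transcripts of the gene, and they differed. Probe 1 read 6.32, 6.38, 6.23 and 6.10 in control, 7.61, 7.62, 7.47 and 7.40 with IL4, and 7.22, 7.05, 6.85 and 6.95 with IL4 plus emodin, so the 3 groups did not overlap. IL4 raised it by 1.27 ± 0.10 (adjusted p = 4.16e-06), 2.40-fold, and by 1.23 to 1.30 between same-number arrays. Emodin lowered it by 0.51 ± 0.10 from IL4 (adjusted p = 0.000772), and it stayed 0.76 ± 0.10 above control (adjusted p = 3.66e-05), but at -0.19 against the spike-ins. Probe 2 read 5.99, 5.61, 5.80 and 5.65 in control, 5.78, 5.61, 5.67 and 4.91 with IL4, and 5.85, 5.91, 5.52 and 5.62 with IL4 plus emodin, with overlap of all groups. Its differences were -0.27 ± 0.18 with IL4 (adjusted p = 0.356) and 0.23 ± 0.18 with emodin against IL4 (adjusted p = 0.266). The log2 ratio of probe 1 to probe 2 within an array, which does not depend on the scaling, was 0.50 ± 0.19 in control (SD, n = 4), 2.03 ± 0.32 with IL4 and 1.29 ± 0.10 with IL4 plus emodin. It differed between each pair of groups (exact permutation test, two-sided, p = 0.0286, the smallest possible; the ratio was chosen after the probe values were seen). The ratio shows an unequal change of the probes and not which of them is at rest.

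**Figure D4:**
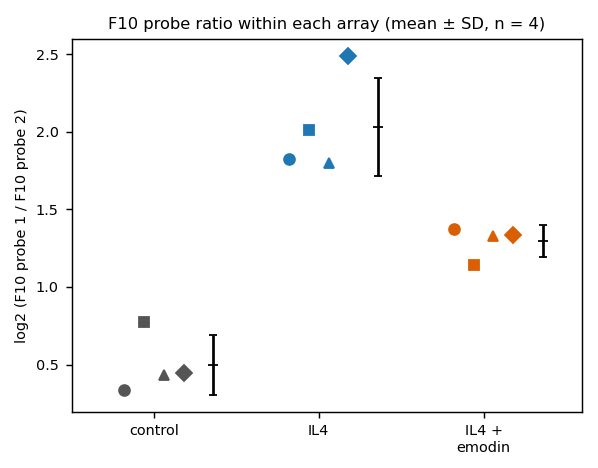
Log2 ratio of F10 probe 1 to F10 probe 2 within each array (vertical axis) in the 3 groups, with mean ± SD (n = 4). The control arrays lie at 0.33 to 0.77, the IL4 arrays at 1.80 to 2.49 and the IL4 plus emodin arrays at 1.14 to 1.37.

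F5 encodes factor V, the cofactor of factor X. Probe 1 read -0.96, -1.87, -0.95 and -1.61 in control, -1.08, -1.56, -1.24 and -1.39 with IL4 and -1.02, -1.29, -0.80 and -0.75 with IL4 plus emodin. Probe 2 read 1.23, 0.62, 1.13 and 0.57 in control, 1.11, 0.57, 0.92 and 0.75 with IL4, and 1.29, 1.16, 1.37 and 1.29 with IL4 plus emodin. Control and IL4 overlapped on both, with IL4 differences of 0.03 ± 0.21 and -0.05 ± 0.16 (adjusted p = 0.948 and 0.882). With emodin against IL4 probe 2 was higher by 0.44 ± 0.16 (adjusted p = 0.0300), and probe 1 stood at 0.35 ± 0.21 (adjusted p = 0.156). Against the spike-ins both were lower, at -0.65 and -0.73. Against control, probe 2 stood at 0.39 ± 0.16 with emodin (adjusted p = 0.0516) and was called without control array 1 (0.0161) or 3 (0.0343). The call on probe 2 against IL4 was lost without IL4 array 2 (0.0907) or 4 (0.0684) and without emodin array 1 (0.0551), 3 (0.0661) or 4 (0.0564).

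In the clotting and fibrinolysis list, 2 of 13 genes were higher with IL4 and 3 lower, with a median of -0.27. The anticoagulant receptors Procr and Thbd fell by 1.03 ± 0.13 and 0.66 ± 0.10, Plaur fell by 0.54 ± 0.11, and F7 rose by 0.59 ± 0.13. Against IL4 alone, on the emodin arrays 4 were higher and 4 lower. Thbd fell by 2.66 ± 0.10 and Plaur by 1.25 ± 0.11, while Plau rose by 1.47 ± 0.17 and Procr by 1.38 ± 0.13. Against control, Thbd fell by 3.32 ± 0.10. Against the spike-ins, none of the 13 was higher and 9 were lower with emodin than with IL4.

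Bhlhe40 encodes a basic helix-loop-helix repressor that large peritoneal macrophages need for self-renewal. It read 4.26, 4.11, 4.12 and 4.20 in control, 5.13, 5.15, 5.01 and 5.25 with IL4, and 4.37, 4.31, 3.95 and 4.36 with IL4 plus emodin. All 4 IL4 arrays lay above both other groups, which overlapped each other. IL4 raised Bhlhe40 by 0.96 ± 0.10 (adjusted p = 4.10e-05), 1.94-fold, and by 0.87 to 1.05 between same-number arrays. Emodin lowered it by 0.89 ± 0.10 from IL4 (adjusted p = 1.09e-05) and left it at 0.07 ± 0.10 against control (adjusted p = 0.540, 95% interval -0.15 to 0.29), a difference of -0.88 against the spike-ins. The 5 genes whose pattern over the 12 arrays was most like it were Smg5 (r = 0.988), Syn1 (0.986), Flrt2 (0.985), Socs1 (0.979) and Fyn (0.973); within groups these r were 0.846, 0.797, 0.796, 0.785 and 0.504.

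**Figure D5:**
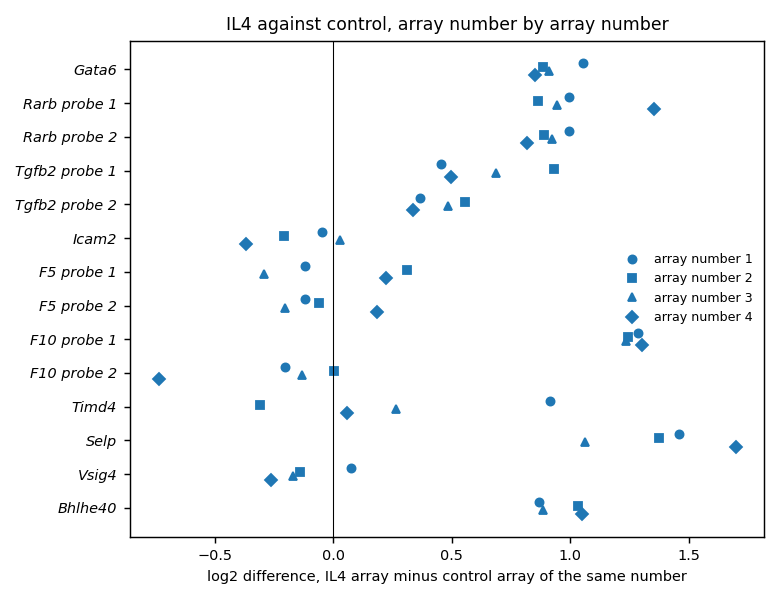
Log2 difference between the IL4 array and the control array of the same number (horizontal axis) for each of the 14 probes, with the shape of a point for the array number. All 4 differences lie above 0 for Gata6, both Rarb and both Tgfb2 probes, F10 probe 1, Selp and Bhlhe40.

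Of 17 other genes tied to BHLHE40 and to cell division, 4 were higher with IL4 and 1 lower. Myc rose by 0.91 ± 0.15 and the cell cycle inhibitor Cdkn1a by 0.79 ± 0.11, while the cyclin Ccnd3 fell by 0.65 ± 0.12. In the comparison of IL4 plus emodin with IL4, 5 were higher and 8 lower: the replication factor Mcm5 fell by 1.33 ± 0.13, whereas the close relative Bhlhe41 rose by 2.27 ± 0.14 and Cdkn1a by 1.60 ± 0.11. Against control, Cdkn1a was higher by 2.39 ± 0.11 and Maf fell by 1.64 ± 0.17. Of 16 factors of tissue macrophages, 6 were higher and 4 lower with IL4, and 6 and 0 against the spike-ins. Klf4 rose by 1.53 ± 0.09, Pparg by 1.34 ± 0.09 and Cebpa by 0.89 ± 0.11. With emodin against IL4, 6 were higher and 7 lower: Klf4 fell by 1.91 ± 0.09 and Cebpa fell by 2.56 ± 0.11. Against the spike-ins 2 of the 16 were higher and 13 lower, where 1093 of all 27705 probes were called higher and 22151 lower.

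Among 21 further genes of large peritoneal macrophages, 5 were higher and 2 lower with IL4, and the median was 0.02. Fn1, fibronectin, rose by 2.44 ± 0.19 and the aspartoacylase Aspa by 2.34 ± 0.34, while the inflammasome sensor Naip1 fell by 1.10 ± 0.14. The lipoxygenase Alox15 was at least 2.07-fold higher (adjusted p = 0.00694), being well above background on 4 IL4 arrays and on no control array. In the comparison of IL4 plus emodin with IL4, 8 of 21 were higher and 3 lower, against 39.7% and 26% of all probes. Aspa fell by 2.86 ± 0.34, with 1 emodin array above background, and Thbs1 and Cav1 rose by 1.68 ± 0.30 and 1.24 ± 0.17. For this list and comparison, quantile normalization gave 5 higher and 5 lower, and the spike-ins none higher and 12 lower. Of 13 markers of small peritoneal and monocyte-derived macrophages, 4 were higher with IL4 and 2 lower, and none was higher and 5 lower with emodin against IL4. Their summed level was 147 to 305 in control, 302 to 484 with IL4 and 231 to 368 with emodin, and treating the arrays as unpaired neither the IL4 nor the emodin difference of the sums passed (exact permutation test, two-sided, p = 0.0571 and 0.114, with 0.0286 the smallest possible). Between same-number arrays the IL4 sum exceeded control by 0.67 to 1.04 on the log2 scale in 4 of 4. Itgax had the highest signal in this sum and was itself higher with IL4 by 0.65 ± 0.18. Cx3cr1 went the other way, well above background on 4 control arrays and on 0 IL4 arrays. A higher sum cannot tell more of these cells from more RNA per cell. The part of these cells in the member values was not tested. All 3 B-cell markers tested were lower with emodin than with IL4, with sums of 1.15 to 2.16 with IL4 and 0.354 to 0.548 with emodin.

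Between arrays labelled male and female no member probe was called, against 0% of 27705 probes by limma, 2435 of which had an unadjusted p below 0.05. The smallest adjusted p-values were 0.114 for Tgfb2 probe 2, at a difference of 0.44 ± 0.07, and 0.261 for Gata6, at 0.68 ± 0.17; Rarb probe 2 stood at 0.59 ± 0.22 (adjusted p = 0.454). After normexp background correction 11 probes were called, Tgfb2 probe 2 among them (0.43, adjusted p = 0.0320). The medians over the fibroblast and mesothelial lists in the same comparison were 1.17 and 1.14. No probe was called for a difference of the IL4 effect or of the emodin effect between the labelled sexes, 0% and 0% of all probes by limma, with 355 and 695 at an unadjusted p below 0.05.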

How the data were processed

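Single-channel Agilent arrays (12, Cy3) of total RNA from peritoneal macrophages were used. The authors' scanner files, made with Agilent Feature Extraction 10.7.3.1 per the submitters' processing notes, hold spot intensity in linear units, already background-subtracted and detrended per the file headers; the deposited value table holds log2 values, which are quantile-normalized and centred on each probe, as recomputing them from the scanner files showed (r = 1 on every array). Per-array precision is limited by 4 arrays a group.

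Intensities were taken as log2 minus the 75th percentile of each array; control spots and outlier-flagged spots were left out and spots of a probe averaged. Symbols came from RefSeq transcripts (27509 probes with 1 symbol, 28172 unnamed here). Tests were two-sided and used limma 3.58.1 (R 4.3.3), fitting a mean for each of the 3 groups to all 12 arrays, with Benjamini-Hochberg adjustment over 27705 probes and a threshold of 0.05. The fit was tested on simulated data. Single array measures had exact permutation tests over samples. Same-number deviations correlated at 0.283 to 0.495 between control and IL4, so the replicate numbers of the labels were taken to pair those arrays. Arrays of the same number also shared a column on the slide, and the part of that was not tested. With emodin the same-number correlations ran from 0.0543 to 0.494 against control and from 0.0825 to 0.410 against IL4. Array 2 gave the lowest in both, so the numbers were not taken to pair the emodin arrays. Genes named are all 14 probes; from each pathway list up to 4 called genes with the largest absolute difference per comparison, each by its brightest kept probe (some are not reported here); and the 5 symbols most correlated with Gata6 and with Bhlhe40. Members and lists were chosen with earlier results of these data known. Alternatives were normexp (offset 50), quantile and spike-in scaling, the deposited table, other filters, 1 probe a gene, the compared groups alone, labelled sex, a replicate block and leaving out arrays. The replicate block was fitted to all 12 arrays, those with emodin included. Using only the arrays of 1 labelled sex, and the mesothelial sum without Lrrn4, were chosen after seeing the data. Figures were drawn with matplotlib 3.10.9.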

Additional observations from a re-analysis of the deposited data

Results flagged for a closer look

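In 4 of 42 sets of 4 arrays (14 probes in 3 groups), 1 array stood apart from the other arrays of its group by Dixon's criterion; chance alone gives about 1 in 20 sets. Rarb probe 1 on IL4 array 3 read 0.39, and the next IL4 array -0.37. Tgfb2 probe 1 on control array 2 read -3.59, and the next control array -3.03. Icam2 on IL4 plus emodin array 3 read 1.36, and the next 1.09. Bhlhe40 on IL4 plus emodin array 3 read 3.95, and the next 4.31.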

How the results depend on the processing

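Of 1602 alternative values of the member differences, 1494 stayed on the same side of the threshold, 54 gained and 42 lost a call, and 12 reversed, all 12 under spike-in scaling; 132 others changed sign without a call on either side. With spike-in scaling, IL4 plus emodin against IL4 gave -0.85 for F10 probe 2, -0.73 and -0.65 for F5 probes 1 and 2, -1.04 for Tgfb2 probe 2 and -1.06 for Timd4, with 14 of 14 member probes called. IL4 plus emodin against control then gave -0.88 for Bhlhe40, -0.19 for F10 probe 1, -0.57 and -0.56 for F5 probes 1 and 2, -0.85 for Rarb probe 2, and -0.58 and -0.47 for Tgfb2 probes 1 and 2, with 9 called. The log2 ratio of summed markers reversed against control for macrophages (-0.85), T and NK cells (-0.90) and endothelium (-0.66), and against IL4 for eosinophils (-0.97), endothelium (-0.65) and platelets (-0.96). The cause was not tested. The split of calls over all probes, higher and lower, was 10998 and 7207 for IL4 plus emodin against IL4, 8447 and 8396 after quantile normalization, and 1093 and 22151 against spike-ins; against control it was 10480 and 6921, 7740 and 8177, and 1301 and 20707. For IL4 against control it was 2394 and 2227, and 2418 and 789 against spike-ins.

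Probes called for IL4 against control numbered 11194 with no filter on dim probes, 7291 with normexp, 1055 and 1009 with only the arrays labelled female or male, and 3630 to 4773 with 1 array left out. Member probes called numbered 8 of 14 with labelled sex as a covariate, where 2470 of all probes were called higher and 2328 lower. They numbered 8 with the replicate block, where 23.9% of all probes were called, and 3 and 1 with arrays of 1 labelled sex. With 1 array left out they numbered 2 to 5 (2 without control array 2). For IL4 plus emodin against IL4 the probes called were 34570 with no filter, 11523 labelled female only and 17180 to 17783 with 1 array left out. Member probes were 4 to 7 with 1 array left out. They were 3 labelled male only, where the count over all probes is not reported here, so the 3 cannot be set against it. For IL4 plus emodin against control the probes called were 29791 with no filter, 10763 labelled female only and 16262 to 16881 with 1 array left out. Member probes were 7 of 14 with normexp, where 12402 of all probes were called higher and 6254 lower. They were 9 with the replicate block, where 19175 of all 27705 probes were called, and 2 to 6 with 1 array left out (2 without emodin array 4). Labelled male against female gave 11 probes with normexp, 7 with probes above background on all 12 arrays and 0 to 5 with 1 array left out, and 1 member probe with normexp (0 to 0 with 1 array left out). The difference in IL4 effect gave 12 probes with no filter and 0 to 5 with 1 array left out; that in emodin effect 9, and 0 to 133 (133 without emodin array 1), with 0 to 0 member probes in both.

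For IL4 plus emodin against IL4 the replicate block gave 9 of 14 member probes and 19897 probes called, with Vsig4 at adjusted p = 7.19e-05, Gata6 at 0.0404 and Rarb probe 2 at 0.000908. Against control it newly called Gata6 (adjusted p = 5.37e-05), Selp (0.00801), Tgfb2 probe 1 (0.0264) and F5 probes 1 (0.0393) and 2 (0.00979), among 19175 probes. The replicate block changed no other call between IL4 and control beyond Gata6, Rarb probe 2 and Tgfb2 probe 2. For the emodin comparisons these numbers were not shown to pair the arrays; the array 2 deviations correlated at 0.0825 with IL4 and 0.0543 with control, below those of emodin array 3 with array 2 of the same groups (0.0890 and 0.204). With labelled sex as a covariate Vsig4 was called lower with emodin than with IL4 (adjusted p = 0.0411). Without Lrrn4 the log2 ratio of the mesothelial sum for emodin against IL4 changed sign (-0.39 to 0.15), with no call either way. Timd4 with normexp was called higher with emodin than with IL4 (0.45, adjusted p = 0.0113). Slide as a random block was not run, since slide and emodin coincide. With 3 against 4 arrays the exact test of a summed level often cannot go below 0.0571.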
